A study of Mus musculus with 24 samples.

Results

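The 10 genes described here encode the apolipoproteins A-I, A-II, A-IV, A-V, B, C-I, C-II, C-III, C-IV and E, under the symbols Apoa1, Apoa2, Apoa4, Apoa5, Apob, Apoc1, Apoc2, Apoc3, Apoc4 and Apoe. They were taken from the array by gene name and are 10 of the 37325 genes that the array names. They were read by 17 probes, and each gene is represented by its brightest probe over the 24 arrays. The livers came from male mice of 12 weeks, killed at zeitgeber time 16 (hours after lights on), on 1 array each, and 4 groups held 6 mice each. The LKO mice carried 2 floxed alleles of Pik3ca, the gene of the p110α subunit of phosphoinositide 3-kinase, and 1 copy of a Cre transgene under the albumin promoter, which removes exons 18 and 19 in hepatocytes. The LWT mice were floxed littermates that lacked Cre. Mice of the LWT_Fed and LKO_Fed groups ate freely, and those of the LWT_Fasted and LKO_Fasted groups had no food for 24 h. All 4 groups share the floxed alleles, and no group carried Cre without them, so the Cre transgene and the deletion cannot be told apart.

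Apolipoproteins are the protein coat of the particles that carry fat and cholesterol in blood. Apolipoprotein B is the fixed scaffold of very low density lipoprotein (VLDL), while the small A, C and E proteins move between particles, act on the lipases of the vessel wall and are bound by receptors in the liver. Hepatocytes make most of them, and in the mouse both liver and intestine make apolipoprotein A-IV.

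Most members lie in 2 gene clusters. By RefSeq (assembly GRCm38.p6) Apoa1, Apoc3, Apoa4 and Apoa5 follow each other on chromosome 9, Apoc2, Apoc4, Apoc1 and Apoe follow each other on chromosome 7, Apoa2 is on chromosome 1 and Apob on chromosome 12. The sequences below show what was read for the 4 genes on which the results turn, each a 60-base probe of the array with its position in mm9. For Apoa5, Apoc2 and Apoc3 the second probe of the gene is shown, which served as a check of the first.
Apoa4, chr9:46051206-46051266, plus strand, a place given with a span of 61 bases in the files: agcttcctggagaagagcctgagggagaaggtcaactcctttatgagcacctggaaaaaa
Apoa5, chr9:46078579-46078638, plus strand: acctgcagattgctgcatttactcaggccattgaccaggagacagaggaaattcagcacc
Apoc2, chr7:20258597-20258656, minus strand: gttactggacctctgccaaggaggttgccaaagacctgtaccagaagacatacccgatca
Apoc3, chr9:46041353-46041412, minus strand: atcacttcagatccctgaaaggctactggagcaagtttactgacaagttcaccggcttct

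On each array between 54.7% and 63.0% of the spots were well above background, and no spot was saturated. All 17 member probes were well above background on all 24 arrays. Of 32197 probes tested, 100 differed between the 3 slides, and none of these was a member probe. Pik3ca had 1 probe, whose normalized log2 signal was 11.91 ± 0.21 (SD, n = 6) in LWT_Fed, 12.28 ± 0.14 in LWT_Fasted, 12.54 ± 0.26 in LKO_Fed and 12.26 ± 0.19 in LKO_Fasted. It was higher in fed LKO than in fed LWT mice by a log2 difference of 0.58 (adjusted p = 0.0015), against the direction of a deletion, and its interaction was -0.60 (adjusted p = 0.030), while the fasted genotypes differed by -0.02 (adjusted p = 0.93). The place of the probe relative to exons 18 and 19 was not examined, so this signal gives no check of the genotype labels. Alb, the gene of albumin and a defining hepatocyte gene, lay between 18.97 and 18.99 in the 4 group means. Quantile normalization sets values this high largely by rank, so their evenness does not measure the amount of hepatocyte RNA. In liver RNA fewer cells of a type and less RNA for each cell cannot be told apart.

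Among the 10 apolipoprotein genes the responses to fasting and the differences between LKO and LWT livers were uneven. Apoa4 responded most, with a fasting increase in both genotypes that was far steeper in LKO mice. Apoc2 was lower in fed LKO than in fed LWT livers and rose with fasting in LKO. Apoa5 rose with fasting in both genotypes, and Apoc3 was lowest in fasted LKO livers. With quantile normalization small differences of Apoa1 and Apob passed the test in 1 comparison each, and for Apoa2, Apoc1, Apoc4 and Apoe no comparison passed.

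**Figure D1:**
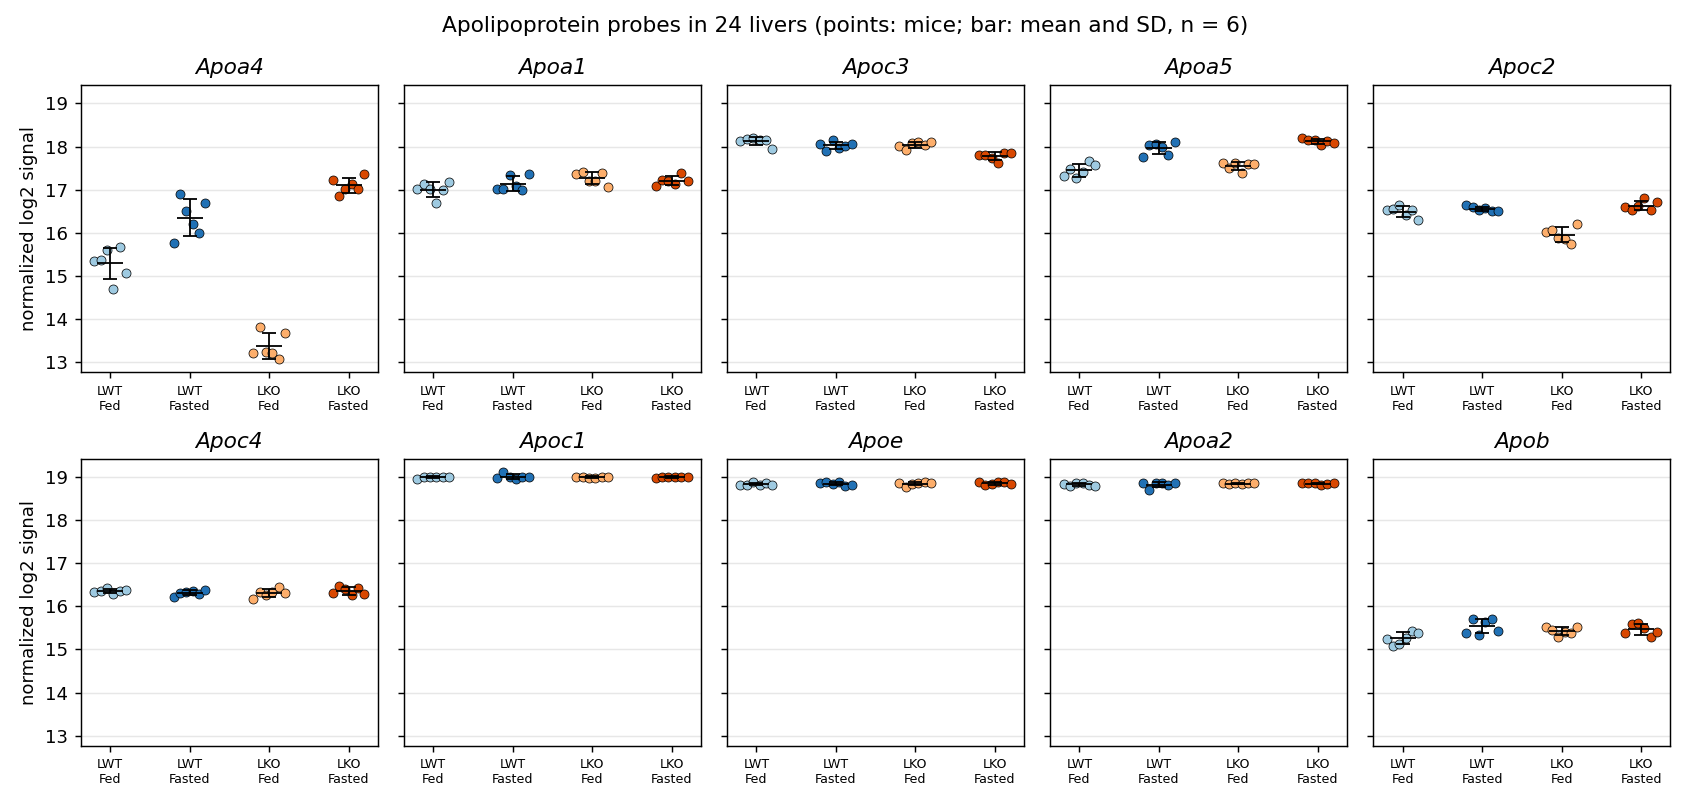
Normalized log2 signal (vertical axis) of the brightest probe of each apolipoprotein gene in LWT and LKO livers of fed and fasted mice. Points are mice, and bars are the mean and SD of 6 mice. The Apoa4 means run from 13.37 in LKO_Fed to 17.10 in LKO_Fasted, whereas the points of Apoa2, Apoc1 and Apoe lie on nearly flat lines.

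The counts behind this were read against all 21488 genes tested, with a gene said to pass at an adjusted p of at most 0.05 (limma, Benjamini-Hochberg over all probes). In LWT mice 3 of the 10 members were higher after fasting and none lower, where 19.9% of all genes were higher and 21.7% lower. In LKO mice 3 were higher and 1 lower after fasting, beside 19.7% and 21.8% of all genes. Between fed LKO and fed LWT mice 1 member was higher and 2 were lower, beside 8.80% and 7.59% of all genes. Between fasted LKO and fasted LWT mice 2 passed, Apoa4 as higher and Apoc3 as lower, beside 20.6% of all genes in either direction. The interaction, a test of whether LKO livers answered fasting differently from LWT livers (the LKO difference less the LWT difference), was positive and passed for 2 members and negative for none, beside 4.10% and 3.86% of all genes. At an unadjusted p of at most 0.05 (limma) the numbers that were lower were 0 for fasting in LWT and 1 for the interaction, which was Apoc3. Without scaling between arrays the share of higher calls among all calls moved from 47.4% to 81.6% for fasting in LKO, from 53.7% to 14.04% between fed genotypes, from 48.6% to 59.8% between fasted genotypes and from 51.5% to 92.3% for the interaction. With 10 members each of these counts rests on 4 genes or fewer. The members' median log2 differences ran from 0.00 to 0.04 in the 5 comparisons, with members on both sides of 0 in each. The comparisons share groups with each other, so they are not independent: the fed LKO mice, for instance, enter both the fasting change in LKO and the difference between genotypes in fed mice.

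**Figure D2:**
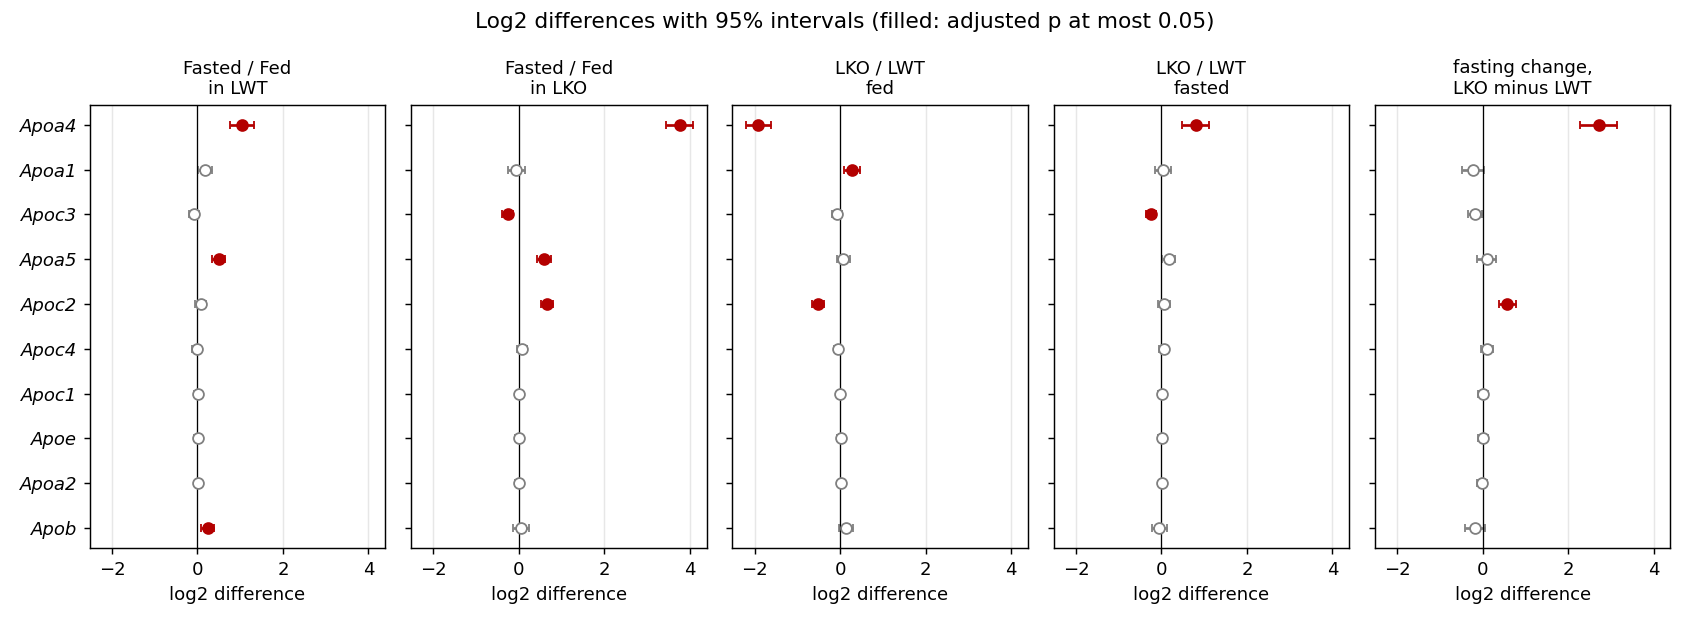
Log2 differences of the 10 members in the 5 comparisons, with 95% intervals from limma (horizontal axis) and filled points where the adjusted p is at most 0.05. The Apoa4 points, at 1.05, 3.76, -1.91, 0.80 and 2.71 from left to right, lie farthest from 0 in every panel.

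Apolipoprotein A-IV travels on chylomicrons, VLDL and high density lipoprotein (HDL) and is known to favour triglyceride secretion. The normalized log2 signal of Apoa4 ran from 14.70 to 15.66 (median 15.36) in LWT_Fed and from 15.76 to 16.90 (median 16.35) in LWT_Fasted. It ran from 13.07 to 13.82 (median 13.22) in LKO_Fed and from 16.85 to 17.35 (median 17.07) in LKO_Fasted. All fed LKO livers thus lay below all fed LWT livers, and within each genotype the fed and the fasted ranges did not overlap. Fasting raised Apoa4 2.07-fold in LWT mice (log2 difference 1.05, SE 0.14, adjusted p = 2.74e-06). In LKO mice it raised Apoa4 13.6-fold (3.76, SE 0.15, adjusted p = 8.58e-14). The interaction was 2.71 (SE 0.21, 95% interval 2.28 to 3.14, adjusted p = 2.42e-07), so the fasting change was 6.55-fold larger in LKO than in LWT.

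Both ends of this range moved in the LKO mice. In the fed state Apoa4 was 3.76-fold lower in LKO than in LWT livers (log2 difference -1.91, SE 0.14, adjusted p = 1.44e-07). In the fasted state it was 1.74-fold higher (0.80, SE 0.15, adjusted p = 0.00066), and here the ranges of the genotypes overlapped. The order of the group means was therefore LKO_Fed, LWT_Fed, LWT_Fasted and LKO_Fasted, and each neighbouring pair passed the test above, although the ranges of the fasted pair overlapped. The spread between mice was widest in LWT_Fasted, with an SD of 0.43, and narrowest in LKO_Fasted, with an SD of 0.18. Within the slides, of which each held 2 mice of every group, the interaction ran from 2.08 to 3.10 and the difference between fed genotypes from -2.22 to -1.66. The difference between fasted genotypes was less even, from 0.19 to 1.19. Apoa4 passed in all 5 comparisons when any of the 24 arrays was left out.

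Because the intestine also makes Apoa4, markers of the enterocyte were read in the same livers. Of 8 such genes 2 passed the filter on dim probes, Fabp2 (intestinal fatty acid binding protein) and Treh (trehalase). Lct and Cdx2 were above background on no array, Sis, Slc5a1 and Alpi on at most 1 array of a group, and Vil1 on at most 2. Fabp2 had group means of 14.85 ± 0.22 in LWT_Fed, 15.11 ± 0.14 in LWT_Fasted, 13.83 ± 0.30 in LKO_Fed and 15.14 ± 0.20 in LKO_Fasted. Fasting moved it by 1.40 in LKO (adjusted p = 1.68e-09), against 0.22 in LWT mice (adjusted p = 0.087), and the interaction was 1.18 (adjusted p = 9.79e-05). Between fasted genotypes, where Apoa4 was higher in LKO, the Fabp2 difference was 0.12 (adjusted p = 0.49). Treh rose with fasting in both genotypes, by 0.80 in LWT mice (adjusted p = 0.0063) and by 0.94 in LKO mice (adjusted p = 0.0038). It was lower in LKO than in LWT in both states, by log2 differences of -1.49 fed and -1.34 fasted, and its interaction was 0.14 (adjusted p = 0.84). Treh was well above background on 4 of 6 arrays in LKO_Fed and on all 6 in the other groups, so its level in fed LKO livers is partly one of background. The summed signal of these 2 genes, nearly all of it from Fabp2, ran from 23098 to 36702 in LWT_Fed and 31297 to 41173 in LWT_Fasted. It ran from 11451 to 19493 in LKO_Fed and 27919 to 39702 in LKO_Fasted. Fabp2 and Treh thus shared with Apoa4 the low level in fed LKO livers and the fasting increase in LKO, but neither was higher in fasted LKO than in fasted LWT livers by the test, and the part of enterocyte RNA in Apoa4 was not tested.

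The 5 genes outside the family whose signal followed Apoa4 most closely over the 24 arrays were also identified. Since the arrays share 4 groups, each correlation is given with that of the deviations from the group means, and as a description only. A probe that the array names for a long intergenic non-coding RNA of chr19:5771425-5848475, forward strand (probe at chr19:5845052-5845111, mm9), had a Pearson r of 0.995 and an r of 0.95 between deviations. Which transcript this probe reads was not checked against an annotation. It was thus high in the same mice as Apoa4 also within groups, and its fasting differences were 1.17 in LWT and 3.86 in LKO. The probe of Gm10680 reads the minus strand of chromosome 9 at 46050711 to 46050770, at a distance of 435 bases from the Apoa4 probe on the plus strand, and had an r of 0.985 with 0.74 between deviations. Sprr1a (0.978 and 0.65), Bcl2l13 (0.935 and 0.34) and Ocstamp (0.931 and 0.65) followed. No run of over 7 bases was common to the Apoa4 probe and any of these 5 probes on either strand. Of the other members, Apoc2 came closest to Apoa4, with an r of 0.90 and 0.48 between deviations, ahead of Apoa5 with 0.76 and 0.34.

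For the other members of the chromosome 9 cluster, Apoa1, Apoa5 and Apoc3, the interaction did not pass with quantile normalization, and the genes beside the clusters were read in the same way. Sik3 and Pafah1b2 flank this cluster on the Apoa1 side and Zpr1 and Bud13 on the Apoa5 side, and for none of these did the difference between fed genotypes or the interaction pass. The same held for Clptm1, Relb, Tomm40 and Nectin2, which flank the cluster of chromosome 7. Sik3 rose with fasting in both genotypes, by 0.75 in LWT and 0.49 in LKO, and so did Nectin2, by 0.74 and 0.77, and Pafah1b2, by 0.23 and 0.27. Between fasted genotypes Bud13 was lower in LKO by -0.70 (adjusted p = 0.028).

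Apolipoprotein C-II is the cofactor that lipoprotein lipase needs to split the triglycerides of VLDL and chylomicrons. The normalized log2 signal of Apoc2 ran from 16.29 to 16.64 (median 16.52) in LWT_Fed and from 16.51 to 16.63 (median 16.55) in LWT_Fasted. It ran from 15.73 to 16.21 (median 15.94) in LKO_Fed and from 16.52 to 16.81 (median 16.60) in LKO_Fasted. The fed LKO group was the low one and overlapped neither fed LWT nor fasted LKO mice. In fed mice Apoc2 was 1.43-fold lower in LKO than in LWT (log2 difference -0.52, SE 0.06, adjusted p = 3.09e-05). Fasting raised it 1.57-fold in LKO (0.65, SE 0.07, adjusted p = 1.2e-07), whereas the difference in LWT was 0.07 (95% interval -0.06 to 0.21, adjusted p = 0.37).

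The fasting change of Apoc2 was larger in LKO than in LWT by 0.58 on the log2 scale (SE 0.09, adjusted p = 0.00073). The fasted genotypes differed by 0.06 (95% interval -0.08 to 0.20). The second Apoc2 probe, whose sequence is given above, gave -0.46 between fed genotypes (adjusted p = 0.00031), 0.65 for fasting in LKO (adjusted p = 6.69e-07) and 0.49 for the interaction (adjusted p = 0.0073). Within the slides the interaction of the first probe ran from 0.57 to 0.65. Apoc2 therefore shared with Apoa4 the low level in fed LKO livers, in a smaller size, but not the higher level in fasted LKO livers. Its fold change in fed mice was under 1.5 with quantile normalization and above it without scaling (log2 difference -0.69). Without scaling the median difference over all probes between fed genotypes was -0.14.

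Apolipoprotein A-V promotes the clearance of triglyceride-rich particles by lipoprotein lipase. Apoa5 ran from 17.26 to 17.65 (median 17.44) in LWT_Fed, from 17.76 to 18.10 (median 18.02) in LWT_Fasted, from 17.38 to 17.62 (median 17.60) in LKO_Fed and from 18.02 to 18.21 (median 18.14) in LKO_Fasted. All fasted mice lay above all fed mice of their genotype. The fasting difference was 0.49 in LWT (SE 0.07, adjusted p = 6.47e-06) and 0.59 in LKO (SE 0.08, adjusted p = 2.26e-06), and the fold in LWT was 1.41. The second probe gave 0.62 and 0.68. Between genotypes the difference was 0.08 in fed mice (95% interval -0.07 to 0.23) and 0.17 in fasted mice (95% interval 0.01 to 0.33, adjusted p = 0.12). The interaction was 0.09 (95% interval -0.12 to 0.31, adjusted p = 0.64), so a difference of Apoa5 between genotypes in its response to fasting was not shown.

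Apolipoprotein C-III works against this clearance, as it inhibits lipoprotein lipase and hinders uptake by the liver. Apoc3 ran from 17.95 to 18.21 (median 18.14) in LWT_Fed, from 17.89 to 18.15 (median 18.03) in LWT_Fasted, from 17.92 to 18.11 (median 18.06) in LKO_Fed and from 17.61 to 17.86 (median 17.80) in LKO_Fasted. The fasted LKO mice were below all other mice of the study. Fasting lowered Apoc3 in LKO by a log2 difference of -0.26 (SE 0.06, adjusted p = 0.0010), a fold of 1.20, and the fasted genotypes differed by -0.25 (SE 0.06, adjusted p = 0.0036). In LWT the fasting difference was -0.08 (adjusted p = 0.27). The interaction of -0.18 did not pass (95% interval -0.35 to -0.02, adjusted p = 0.16), but it passed with 75th percentile scaling of the median signal (-0.32, adjusted p = 0.017) and of the processed signal (-0.33, adjusted p = 0.021), so whether the fall differs between genotypes depends on the scaling. The second Apoc3 probe gave -0.33 for fasting in LKO (adjusted p = 0.00030) and -0.32 between fasted genotypes (adjusted p = 0.0011), and also passed for fasting in LWT at -0.15 (adjusted p = 0.040). The third Apoc3 probe, far dimmer, gave -0.46 for fasting in LKO (adjusted p = 0.0015) and -0.29 between fasted genotypes (adjusted p = 0.053). Without scaling between arrays the fasting difference in LKO was -0.11 (adjusted p = 0.21), as set out for all members further on.

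The genes of the main HDL protein, of the VLDL scaffold and of a minor VLDL protein differed little or not at all. Apoa1, the main protein of HDL, had means of 17.00 ± 0.17 in LWT_Fed, 17.13 ± 0.17 in LWT_Fasted, 17.27 ± 0.13 in LKO_Fed and 17.20 ± 0.10 in LKO_Fasted. In fed mice it was higher in LKO by 0.28 (SE 0.09, adjusted p = 0.030), with overlapping ranges. Its fasting difference in LWT of 0.18 did not pass (adjusted p = 0.090), but passed with 75th percentile scaling of the median signal (0.30) or the processed signal (0.31), with probes above background on all arrays (0.19) and without scaling (0.36). With 1 array left out this difference ran from 0.10 to 0.25 and passed in 2 of 24 cases. The call between fed genotypes was lost when any of 6 arrays was left out, at values from 0.21 to 0.27: LKO_Fed replicates 1, 2 and 4 and LWT_Fed replicates 1, 4 and 5. Apob, whose product is the scaffold of VLDL, had means of 15.26 ± 0.14, 15.54 ± 0.17, 15.43 ± 0.09 and 15.47 ± 0.13 in the same order of groups. Its fasting difference in LWT was 0.24 (SE 0.08, adjusted p = 0.017), and that in LKO was 0.05 (95% interval -0.12 to 0.23), though 0.32 without scaling (adjusted p = 0.0055). The 2 probes of Apob disagreed on LKO, since the second rose with fasting by 0.33 in LKO (adjusted p = 0.00061), close to its 0.31 in LWT mice (adjusted p = 0.00040). The Apob call in LWT was lost without LWT_Fasted replicate 4 (0.20, adjusted p = 0.055) or replicate 5 (0.19, adjusted p = 0.058). Apoc4, a minor VLDL protein, had means from 16.31 to 16.36 and passed in no comparison, although its fasting difference in LKO passed with 75th percentile scaling of the median signal (0.15, adjusted p = 0.043) or the processed signal (0.15, adjusted p = 0.046) and without scaling (0.37, adjusted p = 0.00020). Without scaling it also passed between fed genotypes (-0.19, adjusted p = 0.042) and for the interaction (0.29, adjusted p = 0.046). The medians over all probes were then -0.14 and 0.17.

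Apoa2, the second protein of HDL, Apoc1, which modulates lipid transfer and uptake, and Apoe, the ligand of the hepatic receptors, were among the brightest probes on every array. Out of 32197 probes, Apoc1 ranked 1 to 4, Apoe 6 to 12 and Apoa2 7 to 14. Their normalized log2 signals had group means of up to 19.02, 18.86 and 18.85, and none of the 5 comparisons passed. Before scaling their spots stood at 63.8% to 70.3%, 56.7% to 64.8% and 56.4% to 63.4% of the highest value that the scanner writes. Quantile normalization gives probes of the same rank the same value on each array, and the SDs of these 3 members were from 0.01 to 0.06. The part of signal compression in their flatness was not tested.

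For these bright probes the scaling decided the call. When arrays were scaled to their 75th percentile instead, the fasting difference in LKO was -0.23 for Apoa2 (adjusted p = 0.013), -0.20 for Apoc1 (adjusted p = 0.037) and -0.21 for Apoe (adjusted p = 0.035). Without scaling the 3 differences lay between -0.01 and 0.01. The median fasting difference in LKO over all probes was 0.17 without scaling and -0.05 under the 75th percentile, against -0.01 with quantile normalization. Apoa4, Apoc2 and Apoa5 kept the direction and the call of their LKO fasting changes, tested against 0, under all 3 scalings. The second probe of Apoe, at group means of up to 18.11, gave -0.08 for fasting in LKO and -0.11 between fasted genotypes, and neither passed.

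**Figure D3:**
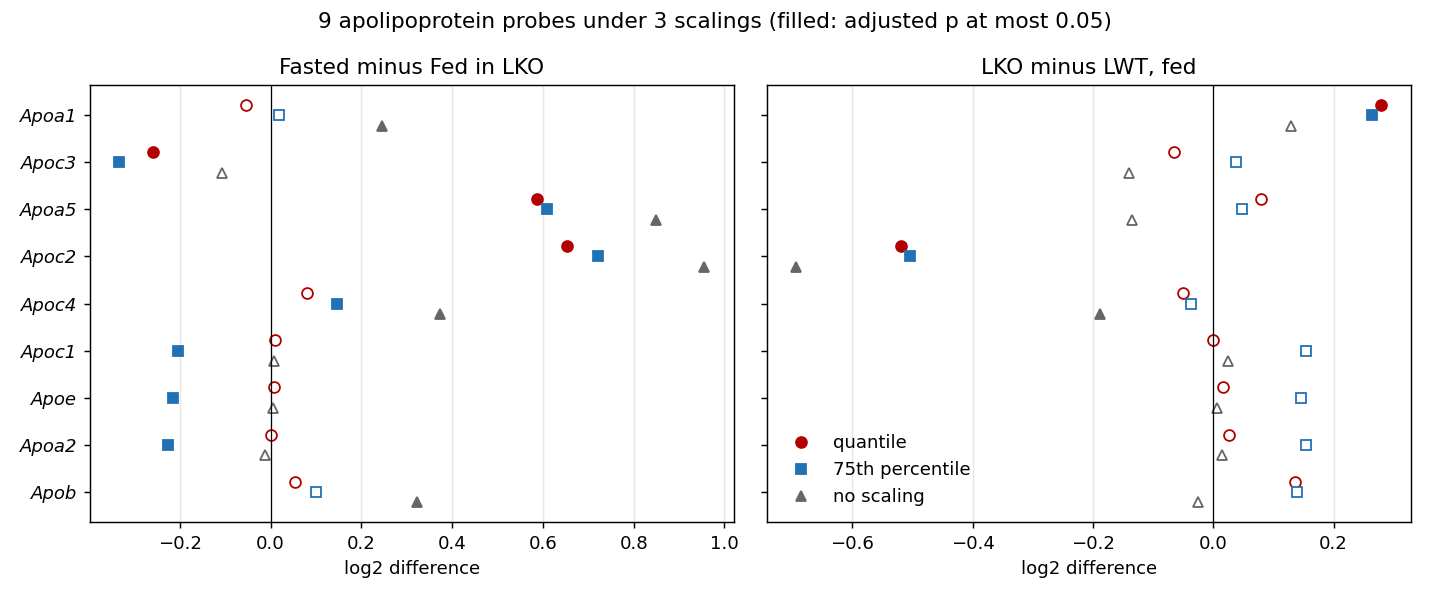
Log2 differences (horizontal axis) of the 9 members other than Apoa4 for fasting in LKO (left) and LKO minus LWT in fed mice (right), under quantile normalization, 75th percentile scaling and no scaling, filled where the adjusted p is at most 0.05. Apoc2 is filled under all 3 in both panels, while Apoa2, Apoc1 and Apoe are filled only under the 75th percentile, on the left.

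The proteins that load lipid onto apolipoprotein B and carry VLDL out of the cell were read as a list of 15 genes. The shares over all genes given above for each comparison are the background of this and the following lists. With fasting 7 passed as higher and 6 as lower in LWT, beside 19.9% and 21.7% of all genes, and 5 and 5 in LKO, beside 19.7% and 21.8%. Between fed genotypes 1 was higher and 5 lower in LKO, and between fasted genotypes 1 and 4. The interaction passed for 3 genes. Mttp, the triglyceride transfer protein that lipidates apolipoprotein B, had means of 12.51 ± 0.07 in LWT_Fed, 12.76 ± 0.08 in LWT_Fasted, 12.24 ± 0.13 in LKO_Fed and 12.95 ± 0.12 in LKO_Fasted. Its order of groups was thus that of Apoa4, with fasting differences of 0.23 in LWT and 0.74 in LKO and an interaction of 0.52 (SE 0.09, adjusted p = 0.0012). A second Mttp probe passed for fasting in LKO, at 0.31 (adjusted p = 0.0089), but not for fasting in LWT (0.08, adjusted p = 0.50), between fed genotypes (-0.00) or for the interaction (0.24, adjusted p = 0.26). The 2 probes therefore disagreed on these calls and on the low level in fed LKO livers. The other 2 interactions, named after their values were seen, were 0.31 for Sar1b (adjusted p = 0.016), a GTPase of vesicle budding, and -0.52 for Tango2 (adjusted p = 0.013). Pltp, which transfers phospholipid between particles, was lower in fed LKO than in fed LWT mice by -1.66 (SE 0.29, adjusted p = 0.00054).

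Of 12 genes for receptors and uptake 2 were higher and 4 lower with fasting in LWT, and 2 and 6 in LKO. Between genotypes 1 was lower in fed mice, and 1 was higher and 2 lower in fasted mice, and 2 interactions passed, both negative. Scarb1, the HDL receptor, was lower after fasting in LKO by -0.60 and had an interaction of -0.71 (adjusted p = 0.0035). Cd36, a fatty acid transporter, was lower in LKO in fed mice by -1.19 (adjusted p = 0.014) and passed as lower in fasted mice too (adjusted p = 0.041).

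The plasma lipases, their modulators and the HDL enzymes made a list of 13, of which 6 were higher and 3 lower with fasting in LWT and 4 and 5 in LKO. Between fed genotypes 1 was higher and 4 lower in LKO, between fasted genotypes 1 and 5, and 3 interactions passed, all negative. Angptl8, an inhibitor of lipoprotein lipase that is high in fed liver, fell with fasting, with differences of -2.75 in LWT and -2.20 in LKO. It was also lower in LKO, by -1.45 in fed mice (adjusted p = 0.00026) and -0.90 in fasted mice (adjusted p = 0.011). Gpld1, a phospholipase carried on HDL, changed with fasting by 0.35 in LWT and -0.57 in LKO, with an interaction of -0.92 (adjusted p = 0.00013).

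Of 18 further genes named as apolipoproteins or tied to them, 16 were tested, and Apol6 and Apol8 did not pass the filter. With fasting 1 was higher and 5 lower in LWT, and 6 were lower in LKO. Between genotypes 2 were higher in fed mice, and 1 was higher and 2 lower in fasted mice. Saa4, a serum amyloid A protein of HDL, had means of 13.53 ± 0.16, 13.61 ± 0.42, 13.27 ± 0.38 and 11.56 ± 0.42 in LWT_Fed, LWT_Fasted, LKO_Fed and LKO_Fasted. It was thus low in fasted LKO mice, where Apoc3 was also lowest, with a difference from fasted LWT of -2.16 (SE 0.21, adjusted p = 5.46e-07) and an interaction of -1.93 (adjusted p = 0.00036). Apol7a fell with fasting, with differences of -1.48 in LWT and -2.33 in LKO and an interaction of -0.85 (adjusted p = 0.026).

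Of 27 transcription factors and cofactors known to act on apolipoprotein genes 9 were higher and 3 lower with fasting in LWT, beside 19.9% and 21.7% of all genes, and 9 and 4 in LKO, beside 19.7% and 21.8%. Between genotypes 3 were lower in fed LKO mice, 2 were higher and 4 lower in fasted LKO mice, and 3 interactions passed. Creb3l3 encodes a liver factor of the endoplasmic reticulum that is known to act on the genes of Apoa4, Apoa5 and Apoc2. It had means of 15.60 ± 0.15 in LWT_Fed, 16.25 ± 0.10 in LWT_Fasted, 15.43 ± 0.10 in LKO_Fed and 16.35 ± 0.10 in LKO_Fasted. Fasting raised it by 0.59 in LWT mice and 0.94 in LKO mice, with an interaction of 0.36 (SE 0.08, adjusted p = 0.0084). In fed mice Creb3l3 was lower in LKO by -0.22 (adjusted p = 0.0076), and in fasted mice the difference of 0.14 did not pass (adjusted p = 0.10).

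Foxo1, a factor that insulin signalling keeps out of the nucleus, rose with fasting in LWT by 0.71 (adjusted p = 2.04e-05) and had a difference of 0.05 in LKO (adjusted p = 0.79), with an interaction of -0.67 (adjusted p = 0.017). Hnf4a, a nuclear receptor that drives many hepatocyte genes, rose with fasting by 0.57 in LWT mice and by 0.28 in LKO mice, and the value of -0.29 for its interaction did not pass (adjusted p = 0.090). A second Hnf4a probe rose by 0.42 in LWT mice (adjusted p = 0.0024) but did not pass in LKO mice (0.19, adjusted p = 0.19). Srebf1, the regulator of fatty acid synthesis, fell with fasting, with differences of -2.76 in LWT and -2.82 in LKO, and was lower in LKO by -0.62 in fed and -0.69 in fasted mice. Pparg was lower in fed LKO mice by -1.02 (adjusted p = 0.011). Nr1h2, which encodes the oxysterol receptor LXRβ and is named after its values were seen, was the remaining factor whose interaction passed, at 0.28 (adjusted p = 0.019). Its difference was 0.24 between fasted genotypes (adjusted p = 0.0020) and -0.04 between fed genotypes (adjusted p = 0.64). The fasting difference of Nr1h2 in LWT was 0.10 (adjusted p = 0.094). Its order of group means was that of Apoa4, as was that of Creb3l3, but for each gene at least 1 step of this order did not pass.

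**Figure D4:**
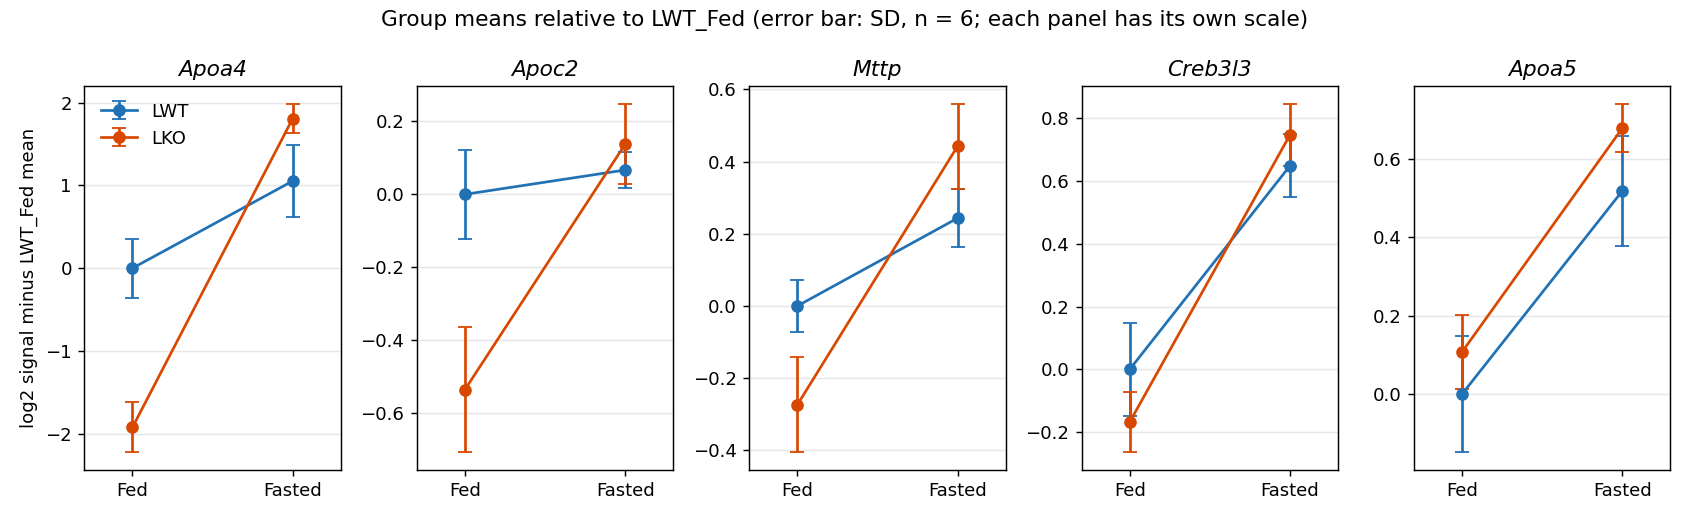
Group means of Apoa4, Apoc2, Mttp, Creb3l3 and Apoa5 on the log2 scale relative to the mean of LWT_Fed (vertical axis, a separate scale in each panel), in fed and fasted mice, with SD of 6 mice. The LKO line crosses the LWT line from below for Apoa4, Apoc2, Mttp and Creb3l3, with interactions of 2.71, 0.58, 0.52 and 0.36, and runs beside it for Apoa5, with 0.09, while a second Mttp probe, not drawn, did not pass for the interaction.

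The bases just before the start of the 2 members with an interaction are given next, from RefSeq on GRCm38.p6, as each 250-base window was searched for short motifs known from liver promoters. Capitals mark the motifs found.
Apoa4, chr9:46240594-46240843, plus strand: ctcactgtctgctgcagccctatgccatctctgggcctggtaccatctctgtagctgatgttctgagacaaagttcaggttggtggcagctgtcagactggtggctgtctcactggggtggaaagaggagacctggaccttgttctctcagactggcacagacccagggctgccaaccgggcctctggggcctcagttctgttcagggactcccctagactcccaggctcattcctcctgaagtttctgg
Apoc2, chr7:19677942-19678191, minus strand: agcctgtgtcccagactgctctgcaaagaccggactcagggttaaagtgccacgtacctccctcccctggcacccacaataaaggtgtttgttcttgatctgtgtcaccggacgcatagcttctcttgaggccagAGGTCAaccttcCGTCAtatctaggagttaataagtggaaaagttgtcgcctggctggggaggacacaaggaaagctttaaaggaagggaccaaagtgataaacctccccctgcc

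Both strands of each window were searched for TATAAA, the TATA box, and for AGGTCA, the half-site of nuclear receptors. The other motifs were TGACG, from the cAMP response element, and TGTTTAC, bound by forkhead factors. CAAAGTCCA, a site of HNF4, was the last. The Apoc2 window held AGGTCA at position -115 and the reverse complement of TGACG at -103, counted from the start. The Apoa4 window held none of the 5, which says only that these letters are not in that window. A window was found for 8 of the 10 members, not for Apoc1 and Apoc3. AGGTCA was present for Apoa2, Apoc2 and Apoc4 and in 14.02% of 32851 windows of all genes, and TGACG for Apoa2 and Apoc2 and in 17.8%. TATAAA was present for Apoa2, Apoa5, Apob and Apoe and in 12.4% of windows, TGTTTAC for Apoa2 and in 3.17%, and CAAAGTCCA for no member and in 0.384%. The 8 members had 12 windows, with 1 each for Apoa4 and Apoc2 and more for Apoa2, Apoa5 and Apoe. A member is named where any of its windows held the motif, so these names are not on the scale of the shares of single windows.

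Markers of the cells that a liver holds were read beside the members. Of 8 hepatocyte markers, Pck1, the enzyme of glucose production, was the one that passed anywhere, as higher with fasting in both genotypes and in fed LKO mice. The summed hepatocyte signal moved little, with mean log2 sums from 21.01 to 21.12. Alb and Serpina1c, with group means of up to 18.99 and 18.85, were as bright as Apoa2 and Apoe. Quantile normalization sets such values largely by rank, so the evenness of this sum was partly set by the scaling. With fasting 1 of 8 Kupffer cell markers, C1qa, was lower in LWT, by -0.60. None of the 8 passed between genotypes in limma, and at an unadjusted p of at most 0.05 2 were lower in fed and 1 higher in fasted LKO mice. Of 6 endothelial markers 1 was lower in fed LKO mice, and with fasting 1 was lower in LWT and 1 higher in LKO. Of 6 stellate cell markers none passed between genotypes (limma; 1 was lower in fed mice at an unadjusted p of at most 0.05), and with fasting Lrat was lower (-0.90 in LWT, -0.96 in LKO) and Dcn higher (0.25 in both genotypes). Of 4 adipocyte markers tested 1 was lower in LKO in both states, and 1 was lower with fasting in each genotype. The 1 pancreas marker tested, of 5 listed, was higher in LKO in both states and lower with fasting in both genotypes. Of 5 cholangiocyte markers 3 were lower in LKO in fed mice and 2 in fasted mice, Spp1 (-2.10, adjusted p = 5.49e-06) and Epcam (-0.42, adjusted p = 0.0094). With fasting 2 were lower and 1 higher in each genotype. Epcam was well above background on 2 of 6 arrays in LKO_Fed and 1 of 6 in LKO_Fasted, so its LKO level is largely one of background. The summed signal of the 5 cholangiocyte markers ran from 2096 to 3425 in LWT_Fed, 1722 to 2200 in LWT_Fasted, 783 to 1838 in LKO_Fed and 507 to 1174 in LKO_Fasted. It did not rise with fasting in LKO, unlike Apoa4 and Apoc2, although Sox9, 1 of the 5, did (0.58, adjusted p = 0.0036). In LWT_Fed the mean log2 sum was 11.25, beside means of at most 7.38 for Krt19, Krt7, Epcam and Sox9, so Spp1 made most of it. The part of these markers in the difference of Apoa4 and Apoc2 between fed genotypes was not tested.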

How the data were processed

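Liver RNA of 24 male mice was labelled with Cy3 by the authors and hybridised to 1-colour Agilent mouse arrays of 60-base probes, 8 arrays on each of 3 slides. The deposited scanner files hold the intensity of each spot as read by Feature Extraction 10.10.1.1, not scaled between arrays, and the series matrix holds the authors' log2 values after a filter, batch correction and quantile normalization with limma (version not given in the sources used here). Positions in the files refer to mm9.

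From the files, the log2 median signal of spots outside controls was averaged over spots of 1 probe. Probes well above background on at least 5 of 6 arrays of at least 1 group were kept (32197) and quantile normalized. A model with group, slide and array weights was fitted with limma 3.58.1 (R 4.3.3) and tested on simulated data. The p-values were two-sided, with Benjamini-Hochberg adjustment across every probe tested, and passed at 0.05. Levels are group means ± SD of the normalized log2 values, not adjusted for slide or weights, and log2 differences come from the model. The paper's methods describe a correction for the washing bath, for which slide stands here. Where a gene had several probes, the one brightest on average was used. Names of 32994 probes were matched to RefSeq by accession. Tables were made with Python 3.11.15 (pandas 2.3.3, numpy 2.4.6). The p-values set each group difference against the spread between mice, as limma estimates it with slide, array weights and information shared over probes.

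The members, the gene lists, the marker lists and the rule for named genes were chosen with earlier results of these data known. Named were all members, genes of each list that passed in the interaction or between fed genotypes with a fold over 1.5 (at most 6 for each list), Mttp, Creb3l3, Hnf4a and Foxo1, the 5 genes most like Apoa4, and Alb and Pik3ca as checks. A further gene named by the rule is not reported here. The alternatives were other filters, scalings, background corrections, probes, batch terms and call rules, the authors' log2 values, a replicate block and each array left out.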

Additional observations from a re-analysis of the deposited data

Results flagged for a closer look

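For 2 members the response to fasting differed between the genotypes by the test of the interaction, with log2 values of 2.71 for Apoa4 and 0.58 for Apoc2.

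In 40 groups of 6 mice (10 members in 4 groups), 5 held a mouse far from the others by Dixon's criterion, of which chance gives about 1 in 20 groups. For Apoa2 the lowest LWT_Fasted mouse (replicate 2) stood at 18.71, where the others were from 18.82 to 18.87. For Apoc1 the lowest LWT_Fed mouse (replicate 1) stood at 18.95 and the lowest LKO_Fasted mouse (replicate 1) at 18.98, with all others of their groups at 19.01. The highest LWT_Fasted mouse of Apoc1 (replicate 2) stood at 19.13, where the others were from 18.95 to 19.01. These 4 cases concern probes of the first 14 ranks, where quantile normalization gives many mice of a group the same value. For Apoc3 the lowest LWT_Fed mouse (replicate 6) stood at 17.95, and the others were from 18.13 to 18.21.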

How the results depend on the processing

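Apoa4 kept its direction and passed in all 5 comparisons under every alternative run, and the calls of Apoc2 and Apoa5 were lost only where a fold over 1.5 was asked for. With that rule the members that passed fell to 1 for fasting in LWT, 1 between fed genotypes, 1 between fasted genotypes and 1 for the interaction. In each case this was Apoa4 (3, 3, 2 and 2 members without the rule). For fasting in LKO 3 members passed with it, Apoa4, Apoa5 and Apoc2, against 4. The rule left 2155 and 2746 of all 21488 genes for fasting in LWT and LKO. It left 821 and 872 between fed and fasted genotypes and 663 for the interaction. The listed pathway genes fell to 23 and 22 for fasting in LWT and LKO (46 and 46 without it). They fell to 5 and 10 between fed and fasted genotypes and to 5 for the interaction (17, 23 and 13 without it). In all 65 pathway calls passed, against 145. Under 75th percentile scaling 8 members passed for fasting in LKO, and 7 with the processed signal scaled in the same way, against 4. Of all 21488 genes, 4231 were higher and 5230 lower for fasting in LKO under the first. The numbers were 4375 and 4795 under the second, and 4230 and 4689 with quantile normalization. Apoa2 (-0.23), Apoc1 (-0.20) and Apoe (-0.21) turned negative there under the first, and Apoa2 (-0.27) and Apoe (-0.27) under the second. Apoc3 then also passed for the interaction, at -0.32 and -0.33. Without scaling, an alternative added after the values were seen, Apoa1 turned to 0.25 for fasting in LKO, Apoc3 no longer passed there, and 32 pathway genes passed between fed genotypes against 17. Over all genes the calls between fed genotypes moved as well, from 1891 higher and 1632 lower to 968 higher and 5928 lower. Apoa1 between fed genotypes did not pass with the processed signal (adjusted p = 0.061), with only the compared groups in the fit (0.078) or without scaling (0.26). Why these calls moved was not tested.

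Leaving out each array gave 2 to 4 members for fasting in LWT and 2 to 3 between fed genotypes, and no other count changed. With the replicate block 3, 4, 3, 2 and 2 members passed, the same genes as without it, and 140 pathway calls. The replicate numbers do not pair the mice, since deviations of equally numbered mice had a median r of -0.03 (-0.18 to 0.28). Over single members, 711 values of the other alternatives kept direction and call, 12 newly passed, 11 no longer passed and 6 reversed. A fit of only the compared groups gives no value for the interaction, which uses all 4.

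The 3 brightest members stood within the first 14 ranks of every array, where quantile normalization sets the value by rank. Apoa4, Apoa1, Apoc1 and Apoc4 rest on 1 probe each, and 6 mice in each group set the precision of every comparison.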
